A study of Homo sapiens with 4 samples.

Results

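The leukocyte immunoglobulin-like receptors are a family of cell-surface proteins of white blood cells, and 9 genes of the family and its close relative LAIR1 were examined in THP-1 cells with and without knockdown of PIWIL4. The members were listed by symbol: the activating receptors LILRA1, LILRA2, LILRA5 and LILRA6, the inhibitory receptors LILRB1, LILRB2, LILRB3 and LILRB4, and the inhibitory collagen receptor LAIR1. All 9 were found among the 25680 gene names of the deposited tables. The rule is a list of symbols with no cut-off on a measured value, but the list was chosen with earlier results of these data known. LILRA3, LILRA4, LILRB5 and LAIR2 are not on it. THP-1 is an established human monocytic line of acute myeloid leukaemia. The shPIWIL4 group held 2 libraries of cells transduced with a lentiviral vector named PGP-shPIWIL4, a short hairpin RNA directed at PIWIL4, and the Scrambled group held 2 libraries of cells given the matching vector with a scrambled hairpin. Cells of both groups were transduced, sorted by FACS 48 hours later and lysed for total RNA, so that the controls carry a vector as well. The sample titles set the groups, since the word scrambled also occurs in the treatment field of libraries titled shPIWIL4.

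Activating and inhibitory members have similar immunoglobulin-like domains outside the cell and differ inside it. The LILRA receptors have short tails and signal through FCER1G, an adaptor that carries the activation motif called ITAM and recruits the kinase SYK. The LILRB receptors and LAIR1 carry inhibitory motifs called ITIMs, which recruit phosphatases such as PTPN6 (SHP-1) and PTPN11 (SHP-2) and dampen activation. Most members are expressed on monocytes, macrophages and related myeloid cells, and their genes lie together on chromosome 19 in the leukocyte receptor complex.

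Library totals were 50689304 and 53657246 counts in the shPIWIL4 libraries and 31458079 and 51655687 counts in the Scrambled libraries. PIWIL4, the targeted gene, had 17.8 and 17.4 CPM (counts scaled to library size) in the shPIWIL4 libraries, against 38.5 and 37.2 CPM in the Scrambled libraries, a log2 fold change of -1.10 (adjusted p = 1.3e-05, edgeR's quasi-likelihood test, Benjamini-Hochberg adjustment over all 16108 genes tested). All 13 monocyte markers examined were detected in every group, and markers of other blood cells were mixed, with CD3E, CD2, BLK and PF4 at 0 in all 4 libraries and PAX5, NKG7, CD79B and ITGA2B detected in all 4. Nothing in the labels states that replicates were separate cultures, so p-values measure the spread between these libraries, which may be technical. The shPIWIL4 replicates differed more from each other than the Scrambled replicates did (mean chi-square per gene 27.9 against 7.89). The test used 1 spread per gene for both groups. With 1 hairpin and no rescue group, loss of PIWIL4 and any other action of the hairpin cannot be told apart.

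Some promoter windows of the members resemble one another closely. RefSeq (GRCh38.p14) gave start sites for 8 of the 9 members, with 15 windows of 250 bases directly upstream of them, and 1 window is shown for each of the 6 members that were higher after knockdown. For LILRA1, LILRB1 and LILRB2 it is a window that most resembles those of the other two, chosen after the sequences were compared, so the likeness is a description and not a property of all their windows. LILRA2 and LAIR1 have 2 windows each, all with AGGAAG or CTTCCT, of which 1 is shown. Each is written 5′ to 3′ along the gene's own strand, and capitals mark matches to 2 patterns of ETS-family transcription factors, AGGAAG (or its reverse complement CTTCCT) and GGGAAGT (or ACTTCCC), which cannot share the same GGAAG core. The windows are chr19:54593382-54593631 (plus strand) for LILRA1, chr19:54630234-54630483 (plus) for LILRB1, chr19:54281111-54281360 (minus) for LILRB2, chr19:54573581-54573830 (plus) for LILRA2, chr19:54662735-54662984 (plus) for LILRB4 and chr19:54370559-54370808 (minus) for LAIR1.
LILRA1: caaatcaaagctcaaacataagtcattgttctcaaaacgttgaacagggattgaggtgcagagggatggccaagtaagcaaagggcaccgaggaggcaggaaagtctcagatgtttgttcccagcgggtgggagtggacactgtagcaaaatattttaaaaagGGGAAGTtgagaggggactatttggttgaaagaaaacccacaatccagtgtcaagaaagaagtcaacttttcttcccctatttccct
LILRB1: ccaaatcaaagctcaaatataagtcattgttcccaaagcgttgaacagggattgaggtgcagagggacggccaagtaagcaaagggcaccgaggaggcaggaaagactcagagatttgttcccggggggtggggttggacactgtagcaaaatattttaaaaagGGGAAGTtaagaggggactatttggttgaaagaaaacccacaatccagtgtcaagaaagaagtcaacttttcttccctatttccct
LILRB2: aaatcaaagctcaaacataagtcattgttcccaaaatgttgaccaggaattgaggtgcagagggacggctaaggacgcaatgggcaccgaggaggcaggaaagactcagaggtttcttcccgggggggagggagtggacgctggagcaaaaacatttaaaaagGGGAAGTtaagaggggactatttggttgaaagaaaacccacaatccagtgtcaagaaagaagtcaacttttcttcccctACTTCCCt
LILRA2: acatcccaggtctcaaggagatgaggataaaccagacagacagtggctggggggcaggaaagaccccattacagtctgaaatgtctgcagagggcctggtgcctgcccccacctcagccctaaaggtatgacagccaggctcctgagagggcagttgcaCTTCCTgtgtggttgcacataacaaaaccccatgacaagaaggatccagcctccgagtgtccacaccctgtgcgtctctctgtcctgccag
LILRB4: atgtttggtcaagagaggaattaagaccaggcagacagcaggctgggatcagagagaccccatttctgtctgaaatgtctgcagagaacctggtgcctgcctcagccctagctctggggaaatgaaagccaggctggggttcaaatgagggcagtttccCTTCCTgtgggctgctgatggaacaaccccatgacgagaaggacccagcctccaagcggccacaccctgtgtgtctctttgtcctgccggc
LAIR1: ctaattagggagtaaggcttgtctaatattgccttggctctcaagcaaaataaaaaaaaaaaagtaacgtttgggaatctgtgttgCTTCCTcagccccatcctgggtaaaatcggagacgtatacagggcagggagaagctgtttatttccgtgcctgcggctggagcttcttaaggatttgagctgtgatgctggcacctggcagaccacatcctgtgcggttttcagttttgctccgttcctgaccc

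The LILRA1, LILRB1 and LILRB2 windows shown are near copies of one another. Aligned in pairs, with gaps counted among the positions, LILRA1 and LILRB1 matched at 94.4% of positions. LILRB1 and LILRB2 matched at 90.5% and LILRA1 and LILRB2 at 90.4%. All of these windows hold GGGAAGT, and LILRB2 has a second copy on the opposite strand at its 3′ end. LILRA1, LILRB1 and LILRB2 each also have a window at another start site that holds AGGAAG or CTTCCT and no GGGAAGT. A further window of LILRB1 and a further window of LILRB2 overlap the windows shown and hold GGGAAGT or ACTTCCC. The LILRA2 and LILRB4 windows shown had 73.3% identity, and both have CTTCCT in place of GGGAAGT. The window of LILRB3, which was not called, was about as similar, with 72.1% identity to LILRB4 and 71.1% to LILRA2. It has an AGGAAG or CTTCCT match too. A LILRA1 window that is not shown had 72.2% identity to the LILRA2 window shown. The other LILRA2 window had 52.5% identity to LILRB4 and 75.6% to a LILRB2 window that is not shown. LILRA2 and LILRB4 are therefore not a pair set apart from the other members. The LAIR1 window matched the other windows shown at 43.5% to 52.8% of positions, gaps included, and also contains CTTCCT. Over all 15 member windows, GGGAAGT on either strand was present in 6, belonging to 4 of the 8 members, and it was present in 5.19% of the 35116 human promoter windows of the same length. LILRA5, which had too few counts to be tested, is 1 of these 4 members. Its window had 64.9% to 65.8% identity to the LILRA1, LILRB1 and LILRB2 windows shown. AGGAAG on either strand was present in 9 of the 15 windows, belonging to 7 of the 8 members, and in 28.7% of all windows. Several windows of LILRA2, LILRB1 and LILRB2 overlap each other, and some windows of different members are near copies. The 15 are therefore not independent, and their shares were not tested against those of all windows. Other patterns of myeloid factors were rarer: the RUNX letters TGTGGT (or ACCACA) were in 3 member windows (10.98% of all windows) and the C/EBP letters TTGCNNAA (or TTNNGCAA) in 1 (9.05%). A match describes the letters and does not show that a factor binds there.

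Of the 9 members, 6 rose in shPIWIL4 cells, none fell, 1 was tested without a call and 2 had too few counts to be tested. LILRA2, LILRB2, LILRA1, LILRB1, LILRB4 and LAIR1 were the members called, in order of fold. In the same comparison 57.7% of all tested genes were called (28.7% higher and 29.1% lower), so calls in either direction were common in these libraries. The same 6 members had both shPIWIL4 libraries above both Scrambled libraries, as did 39.1% of all tested genes (78.6% did not overlap in either direction). LILRA2 and LILRB2 were among the 771 genes (4.79% of those tested) that were called and at least 2-fold higher. All 7 tested members reached the count minimum in the Scrambled libraries alone, so none entered the test only through its level after knockdown. In bulk RNA, more cells of a kind and more RNA per cell cannot be told apart.

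**Figure D1:**
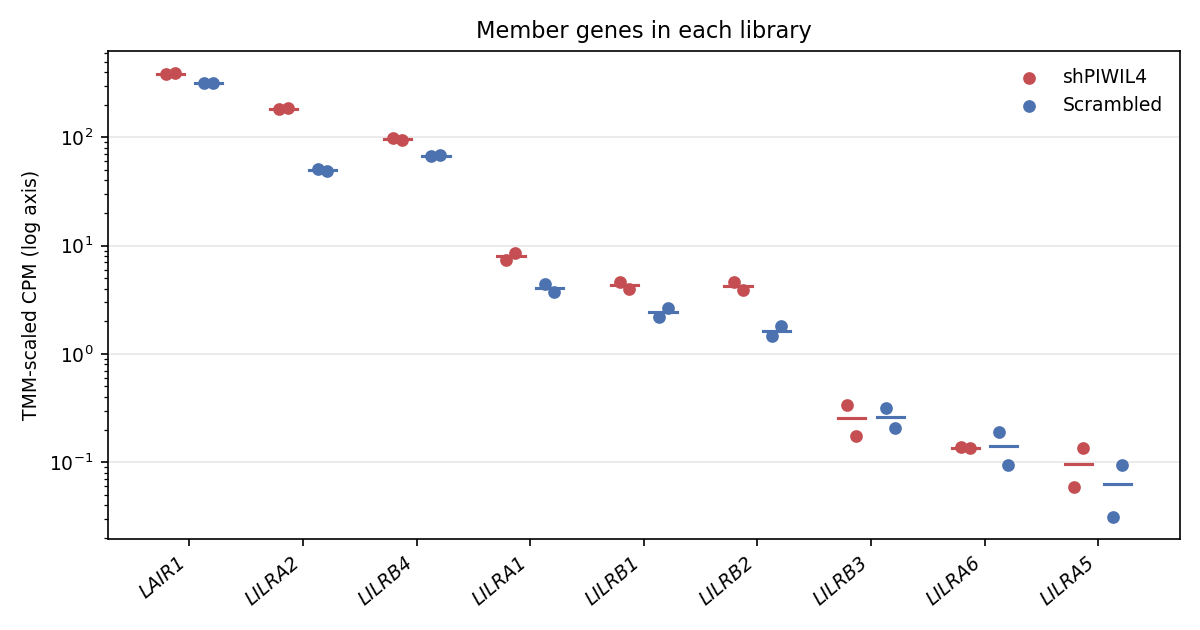
Level of each member in every library, in TMM-scaled CPM on a log axis, with shPIWIL4 left of Scrambled for each gene; points are libraries and bars are group means. LAIR1, LILRA2, LILRB4, LILRA1, LILRB1 and LILRB2 had both shPIWIL4 points above both Scrambled points, and the groups of LILRB3, LILRA6 and LILRA5 overlapped below 1 CPM.

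LILRA2, an activating receptor known to detect immunoglobulins cut by microbial proteases, changed by the largest fold among the tested members. It had 183 and 185 CPM in the shPIWIL4 libraries, against 51.0 and 48.5 CPM in the Scrambled libraries. The groups were far apart and each pair of replicates was close. The raw counts were 9267 and 9610 in shPIWIL4 and 1621 and 2561 in Scrambled. The log2 fold change was 1.89 (95% interval 1.70 to 2.07), which is 3.70-fold, with adjusted p = 4.3e-07 (edgeR's quasi-likelihood test). Across 12 alternative settings the log2 fold change stayed between 1.76 and 1.95, and the largest adjusted p was 1.4e-05.

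LILRA1, an activating receptor that binds HLA class I molecules, was expressed at a much lower level. It had 7.40 and 8.51 CPM in shPIWIL4 cells, against 4.44 and 3.75 CPM in Scrambled cells, from 375 and 442 counts against 141 and 198 counts. The groups did not overlap, and the gene rose 1.96-fold, a log2 fold change of 0.97 (95% interval 0.65 to 1.29, adjusted p 3.6e-04 by edgeR's quasi-likelihood test). LILRA5 and LILRA6, the other activating members, were near the limit of counting. LILRA5, a monocyte activating receptor, had 3 and 7 counts in shPIWIL4 libraries and 1 and 5 counts in Scrambled libraries. LILRA6, whose extracellular part closely resembles that of LILRB3, had 7 and 7 counts in shPIWIL4 libraries and 6 and 5 counts in Scrambled libraries. Neither passed the count minimum and their groups overlapped, so no difference was detectable at this depth.

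Among the inhibitory receptors, LILRB2 changed most. LILRB2 binds HLA class I including HLA-G, and angiopoietin-like proteins have been reported as further ligands. It had 4.58 and 3.93 CPM in shPIWIL4 cells, against 1.45 and 1.82 CPM in Scrambled cells, from 232 and 204 counts against 46 and 96 counts. The lowest shPIWIL4 library exceeded the highest Scrambled library, and LILRB2 rose 2.56-fold (log2 fold change 1.35, 95% interval 0.96 to 1.74, adjusted p 1.6e-04 by edgeR's quasi-likelihood test).

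LILRB1, a broad HLA class I receptor of myeloid and lymphoid cells, had 4.60 and 3.98 CPM in shPIWIL4 cells, against 2.20 and 2.63 CPM in Scrambled cells. The groups were separate here too, and it rose 1.75-fold (log2 fold change 0.81, 95% interval 0.45 to 1.17, adjusted p 2.0e-03 by edgeR's quasi-likelihood test). Because no strand setting is given for the counting and the antisense gene LILRB1-AS1 is annotated over LILRB1, reads from these genes cannot be told apart.

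LILRB4, an inhibitory receptor of monocytic cells and monocytic leukaemia for which APOE is a reported ligand, was the most abundant LILRB gene. It had 98.0 and 94.8 CPM in shPIWIL4 cells, against 67.0 and 68.3 CPM in Scrambled cells. Both shPIWIL4 values lay well above both Scrambled values, and it rose 1.43-fold (log2 fold change 0.51, 95% interval 0.33 to 0.69, adjusted p 4.7e-04 by edgeR's quasi-likelihood test). The change was smaller in fold than those of LILRB1 and LILRB2, though the difference between genes was not tested and the intervals of LILRB4 and LILRB1 overlapped.

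LAIR1, which binds collagens and related proteins, had the smallest change among the called members. It had 383 and 392 CPM in shPIWIL4 cells, against 319 and 316 CPM in Scrambled cells. The libraries of the groups did not overlap, and it was 1.22-fold higher (log2 fold change 0.29, 95% interval 0.10 to 0.47, adjusted p 0.014 by edgeR's quasi-likelihood test). The call depended on the setting: with upper-quartile scaling the log2 fold change was 0.16 (adjusted p 0.11). Without Scrambled replicate 1 it was 0.32 (adjusted p 0.086), and without Scrambled replicate 2 it was 0.28 (adjusted p 0.13). Its direction was positive in all of these.

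LILRB3, an inhibitory receptor of myeloid cells, was measured at 17 and 9 counts in shPIWIL4 libraries and 10 and 11 counts in Scrambled libraries. The groups overlapped, and the log2 fold change was 0.02 with a 95% interval of -0.9997 to 1.04 (adjusted p 0.97 by edgeR's quasi-likelihood test). That interval is wide enough to hold a change of nearly 2-fold either way, and the estimate changed sign with the library left out, between -0.51 and 0.43. LILRB3 and LILRA6 share long stretches of sequence, so their counts were also summed, with a log2 fold change of 0.03 (adjusted p 0.95).

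**Figure D2:**
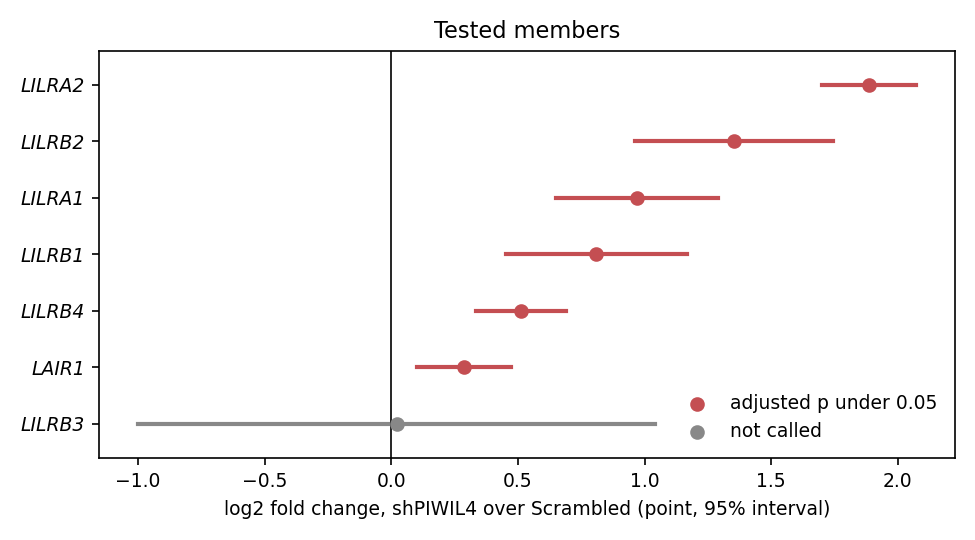
Log2 fold change of shPIWIL4 over Scrambled for the 7 tested members, with 95% intervals from edgeR's quasi-likelihood fit (2 libraries per group). LILRA2 at 1.89 is highest, LAIR1 at 0.29 is the lowest of those called, and the interval of LILRB3 reaches from -0.9997 to 1.04.

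How far reads could be assigned to single members was examined on GENCODE v29 transcripts, by asking which stretches of 50 bases occur in 1 gene only. Such unique stretches made up 98.8% of LILRB4, 95.9% of LILRA5, 93.5% of LILRA1, 93.1% of LAIR1, 85.9% of LILRB2, 84.9% of LILRB1 and 81.4% of LILRA2. They were fewest in LILRB3 (72.8%) and LILRA6 (65.9%), where 20.3% of LILRB3 and 32.7% of LILRA6 stretches were common to both. The counts of LILRB3 and LILRA6 are therefore uncertain as single genes. In LILRA2, 14.8% of stretches were shared with AC245036.5, a non-coding gene annotated over its 3′ end, and LILRB1 and LILRB2 shared 8.86% and 10.99% with each other. The read length and the treatment of reads with several matches were not found in the labels or file headers.

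On a length-corrected scale, LAIR1, LILRA2 and LILRB4 made up nearly all of the family's RNA. In deposited TPM, a measure per transcript length and library, LAIR1 averaged 232 ± 1.9 in shPIWIL4 cells and 184 ± 2.7 in Scrambled cells (SD, n = 2 each). LILRA2 averaged 149 ± 2.6 in shPIWIL4 cells and 39.1 ± 0.57 in Scrambled cells, and LILRB4 averaged 50.6 ± 2.5 in shPIWIL4 cells and 34.4 ± 1.2 in Scrambled cells. Ranked by TPM among the 16108 tested genes, LAIR1 stood at percentile 96.3 in both groups. LILRA2 stood at percentile 93.9 in shPIWIL4 cells and at percentile 78.1 in Scrambled cells. These levels rest on the gene lengths behind the deposited values, which were 0.575 of the longest GENCODE transcript for LILRA2, 0.704 for LAIR1, 0.983 for LILRB4 and 1.51 for LILRA1, so ratios and shares between members are uncertain while differences of one gene between groups are not affected. The remaining members were low: LILRA1 averaged 4.22 ± 0.31 TPM in shPIWIL4 cells and 2.11 ± 0.21 TPM in Scrambled cells.

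LILRB1 and LILRB2 were close in level. LILRB2 averaged 2.79 ± 0.37 TPM in shPIWIL4 cells and 1.04 ± 0.19 TPM in Scrambled cells. LILRB1 averaged 2.56 ± 0.32 TPM in shPIWIL4 cells and 1.40 ± 0.21 TPM in Scrambled cells. In shPIWIL4 cells this pair differed by less than the SD, whereas in Scrambled cells both LILRB1 libraries (1.25 and 1.54 TPM) were above both LILRB2 libraries (0.905 and 1.17 TPM). LILRB3, LILRA6 and LILRA5 came last in both groups, all between 0.038 and 0.25 TPM, and LILRA6 overlapped with both of the others in each group. LILRB3 and LILRA5 overlapped in shPIWIL4 cells, while in Scrambled cells both LILRB3 libraries (0.22 and 0.15 TPM) were above both LILRA5 libraries (0.038 and 0.12 TPM), at 10 and 11 counts against 1 and 5.

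LILRA2 made up a larger share of the summed level in shPIWIL4 cells. The 9 members summed to 447 and 436 TPM in shPIWIL4 libraries, against 260.3 and 265 TPM in Scrambled libraries. LILRA2 accounted for 33.8% and 33.7% of that sum in shPIWIL4 libraries, against 15.2% and 14.6% in Scrambled libraries. LAIR1 took the largest share in each library, at 52.2% and 52.8% in shPIWIL4 libraries and 70.1% and 70.2% in Scrambled libraries. LILRB4 kept a similar place, with 11.7% and 11.2% in shPIWIL4 libraries and 12.9% and 13.3% in Scrambled libraries. The summed LILRA level was 2.65 and 2.82 times the summed LILRB level in shPIWIL4 libraries, against 1.17 and 1.07 times in Scrambled libraries. Within the activating set nearly all of this was LILRA2, whose TPM was 2.88 and 3.01 times that of LILRB4 in shPIWIL4 libraries and 1.18 and 1.10 times in Scrambled libraries.

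**Figure D3:**
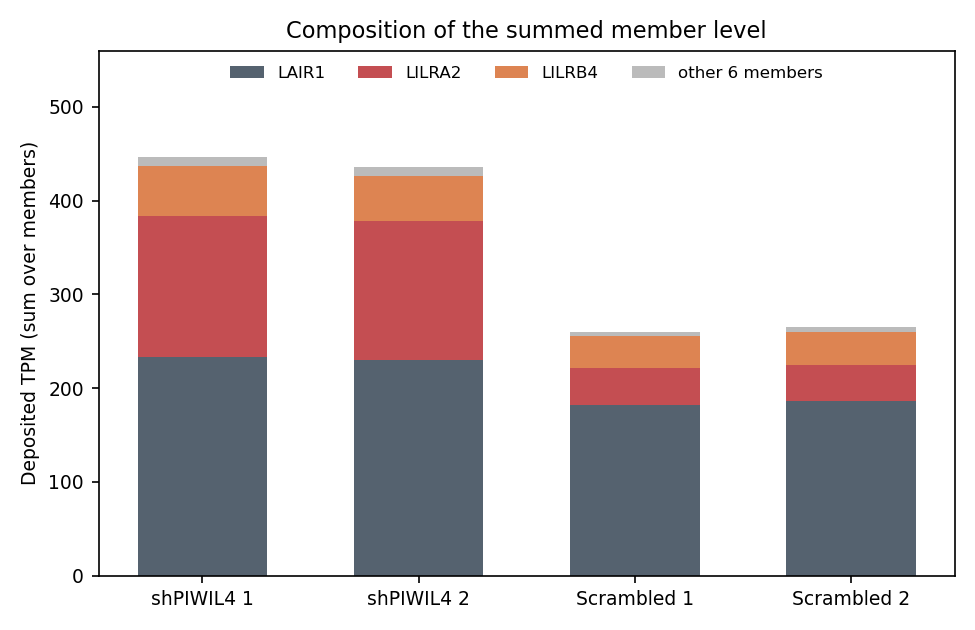
Deposited TPM of the 9 members stacked in each library, the shPIWIL4 libraries left of the Scrambled libraries, with LAIR1, LILRA2, LILRB4 and the other 6 members as segments. The stacks reach 447 and 436 TPM in shPIWIL4 and 260.3 and 265 TPM in Scrambled, and the LILRA2 segment differs most between groups.

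The remaining genes of the LILR and LAIR group were hardly expressed. LILRA4, a receptor of plasmacytoid dendritic cells, was the only other one tested, with 9 and 9 counts in shPIWIL4 libraries and 8 and 19 counts in Scrambled libraries (log2 fold change -0.85, adjusted p 0.098 by edgeR's quasi-likelihood test). LILRA3, LILRB5, LAIR2 and the pseudogene LILRP2 stayed below 0.34 CPM in every library and were not tested.

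All 9 members lie within 452 kb of chromosome 19, from the start of LILRB3 at 54216278 to the end of LILRB4 at 54668718 in GRCh38.p14. Coordinates are those of RefSeq, since the deposited counts were made on hg19 and carry no positions. LILRB3, LILRA6, LILRB2, LILRA5 and LAIR1 form one block, and LILRA2, LILRA1, LILRB1 and LILRB4 form another that begins 197 kb beyond LAIR1. All 4 members of the second block rose, and log2 fold changes along it ran from 1.89 at LILRA2 through 0.97 at LILRA1 and 0.81 at LILRB1 to 0.51 at LILRB4. The 95% intervals of LILRA1, LILRB1 and LILRB4 overlapped, and an order along the block was not tested. In the first block LILRB2 and LAIR1 rose and the other members were at low counts.

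Neighbouring genes of the complex did not share the members' direction as a group. Of 32 neighbours examined that are no LILR or LAIR gene, 20 were tested. Of these, 70% were called, against 57.7% of all tested genes (28.7% higher and 29.1% lower). Among the 20, 4 rose and 10 fell, with a median log2 fold change of -0.38, compared with -0.0034 for all tested genes. Among the 10, KIR3DX1, KIR3DL2 and TTYH1 reached the count minimum only through the Scrambled libraries, where they were higher, so their calls are no support for a direction. The neighbours that rose were NDUFA3 (log2 fold change 1.00), a respiratory chain subunit, LENG1 (0.47), CNOT3 (0.24), and the IgA receptor FCAR (0.43). Those that fell with the smallest p were OSCAR (-1.40), MBOAT7 (-0.93), NLRP2 (-0.91) and MYADM (-0.68). Only 2 neighbours were called higher without Scrambled replicate 1, without Scrambled replicate 2 or with upper-quartile scaling, and 7 without shPIWIL4 replicate 2. CNOT3 lost its call in all 3 of the settings that gave 2, LENG1 without Scrambled replicate 1 and FCAR in the others.

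**Figure D4:**
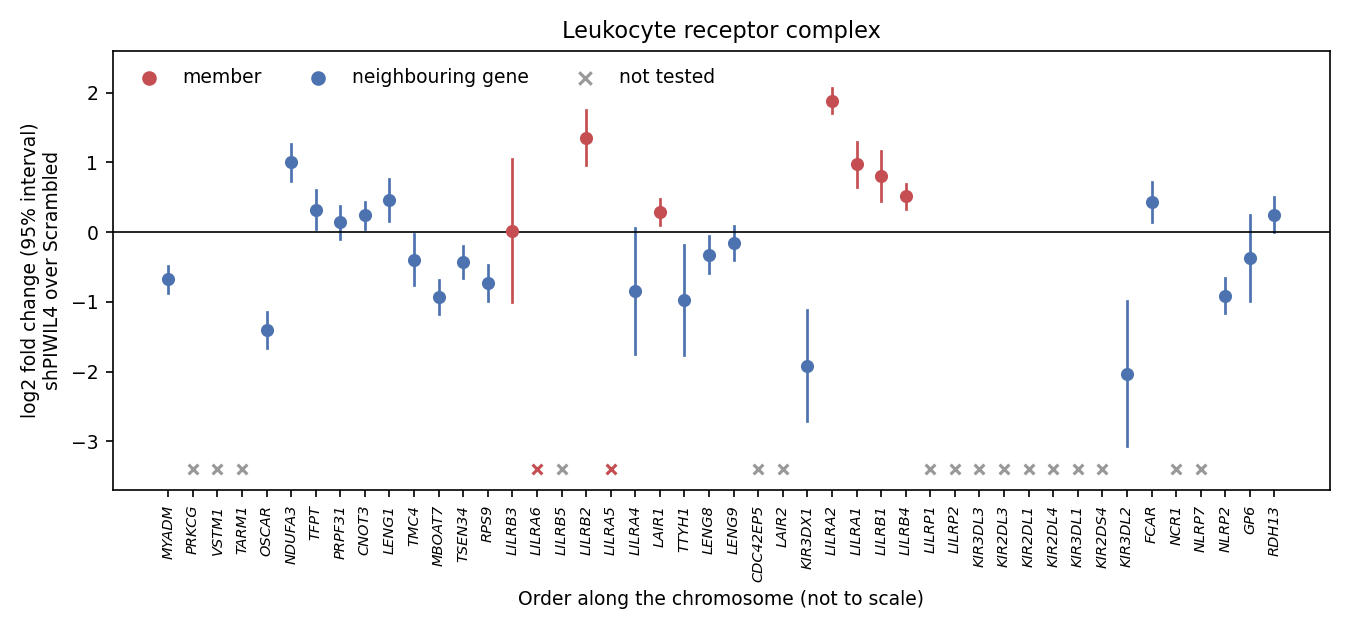
Log2 fold change of shPIWIL4 over Scrambled with 95% intervals for genes of the leukocyte receptor complex, in chromosomal order and not to scale; crosses are genes that were not tested. Point estimates of LILRA2, LILRA1, LILRB1 and LILRB4 go from 1.89 to 0.51, while LILRB2 stands at 1.35 among members at low counts. The intervals of LILRA1, LILRB1 and LILRB4 overlap, and their order was not tested.

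The adaptor and phosphatases that these receptors use did not rise with them. FCER1G, the adaptor of the LILRA receptors, had 76.3 and 97.3 CPM in shPIWIL4 cells, against 95.7 and 81.9 CPM in Scrambled cells, and was not called (log2 fold change -0.03). It was called lower without shPIWIL4 replicate 2 (-0.21, adjusted p 0.034). TYROBP, a related adaptor used by other receptors, rose (0.34, adjusted p 7.8e-03 by edgeR's quasi-likelihood test), a call that upper-quartile scaling removed (0.22, adjusted p 0.055). HCST (-0.07) and CD247 (0.57) were not called.

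Among 4 phosphatases bound by ITIMs and the kinase CSK, which LAIR1 is known to bind, INPP5D (SHIP1) and PTPN11 fell and none rose. INPP5D, a lipid phosphatase, had 386 and 400.4 CPM in shPIWIL4 cells, against 807 and 782 CPM in Scrambled cells (log2 fold change -1.01). PTPN11 had 126 and 136 CPM in shPIWIL4 cells, against 188 and 187 CPM in Scrambled cells (-0.52). PTPN6 (-0.16), INPPL1 (-0.14) and CSK (0.20) were not called, so 40% of the list was called, against 57.7% of all tested genes. Without shPIWIL4 replicate 1 or with upper-quartile scaling PTPN6 and INPPL1 were also called lower, giving 4, and without shPIWIL4 replicate 2 CSK was called higher (0.35).

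Of 20 tested kinases and effectors downstream of ITAM and ITIM receptors, 4 rose and 9 fell, with a median log2 fold change of -0.23. The share called was 65%, against 57.7% of all tested genes. SYK, the kinase recruited by FCER1G, averaged 359 ± 30.5 CPM in shPIWIL4 cells and 189 ± 8.5 CPM in Scrambled cells (SD, n = 2 each, log2 fold change 0.92). YES1 (1.66), PIK3AP1 (0.25) and LYN (0.21) also rose. Among those that fell were CBL (-1.23), a ubiquitin ligase, the adaptor LAT2 (-0.73) and the kinase FGR (-0.63). PIK3AP1 and LYN lost their calls without either Scrambled library and with upper-quartile scaling, which left 2 genes called higher. LCK was at 0 in all libraries.

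Ligands of the LILR and LAIR group gave no single direction either. Among the ligands of HLA class I type, HLA-B (-0.10), HLA-C (-0.11), HLA-E (-0.70) and B2M (0.06) were not called (edgeR's quasi-likelihood test). Without shPIWIL4 replicate 1, which leaves 1 library in that group, log2 fold changes were lower for HLA-B (-0.26), HLA-C (-0.28) and HLA-E (-1.77). HLA-E had only 13 and 4 counts in shPIWIL4 libraries and 6 and 17 counts in Scrambled libraries. It reached the count minimum in neither group alone. The gene lengths behind the deposited values of these HLA genes were 5.88 to 7.16 times their longest GENCODE transcript, so these counts and levels are uncertain. HLA-F and HLA-G, at few counts, were not tested.

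Other reported ligands numbered 13 tested genes, of which 4 rose and 5 fell (median -0.16, 69.2% called against 57.7% of all tested genes). ALCAM (0.66), CD1D (0.59), RTN4 (0.31) and S100A9 (0.27) rose. COL1A1 (-3.17), a collagen chain and thus a ligand of LAIR1, COL4A1 (-0.71), SFTPD (-1.05) and BST2 (-0.28) fell. BST2 is a reported ligand of LILRA4, which is not among the members, and is counted here as part of the list. COL1A1 reached the count minimum only through the Scrambled libraries, so its call is given as a description. Its level was low in both groups, at 0.233 ± 0.079 CPM in shPIWIL4 cells and 2.10 ± 0.38 CPM in Scrambled cells, and COL1A2 and COL3A1 were at 0. APOE, the reported ligand of LILRB4, was not called (-0.19, adjusted p 0.45). RTN4, S100A9 and BST2 lost their calls without Scrambled replicate 1 (adjusted p 0.059, 0.062 and 0.11) and without Scrambled replicate 2 (0.064, 0.25 and 0.17). SFTPD was not called by DESeq2 (adjusted p 0.091). Without Scrambled replicate 2, 2 ligands were called higher and 3 lower.

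Related receptors that use the same motifs but belong to other families moved in both directions. Of 17 other ITIM receptors tested, 6 rose and 6 fell, with a median of -0.09 (70.6% called, against 57.7% of all tested genes). SIGLEC11 (2.61), SIGLEC5 (1.59), CLEC12A (1.55) and CD300LF (0.57) rose, and CD300A (-2.45), FCGR2B (-2.44), SIGLEC10 (-1.05) and PILRA (-0.98) fell. Of 12 other activating receptors tested that pair with adaptors, 7 rose and 3 fell, with a median of 0.39 (83.3% called). TREM2, a lipid-sensing receptor that pairs with TYROBP, averaged 51.6 ± 0.88 CPM in shPIWIL4 cells and 6.91 ± 0.29 CPM in Scrambled cells (2.90). CLEC5A (2.05), SIGLEC14 (1.32) and SIRPB1 (0.49) also rose, and OSCAR (-1.40), CD300LB (-0.91) and TREM1 (-0.42) fell. Without Scrambled replicate 2, 4 of the 12 were called higher, and TREM1 lost its call without either Scrambled library.

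**Figure D5:**
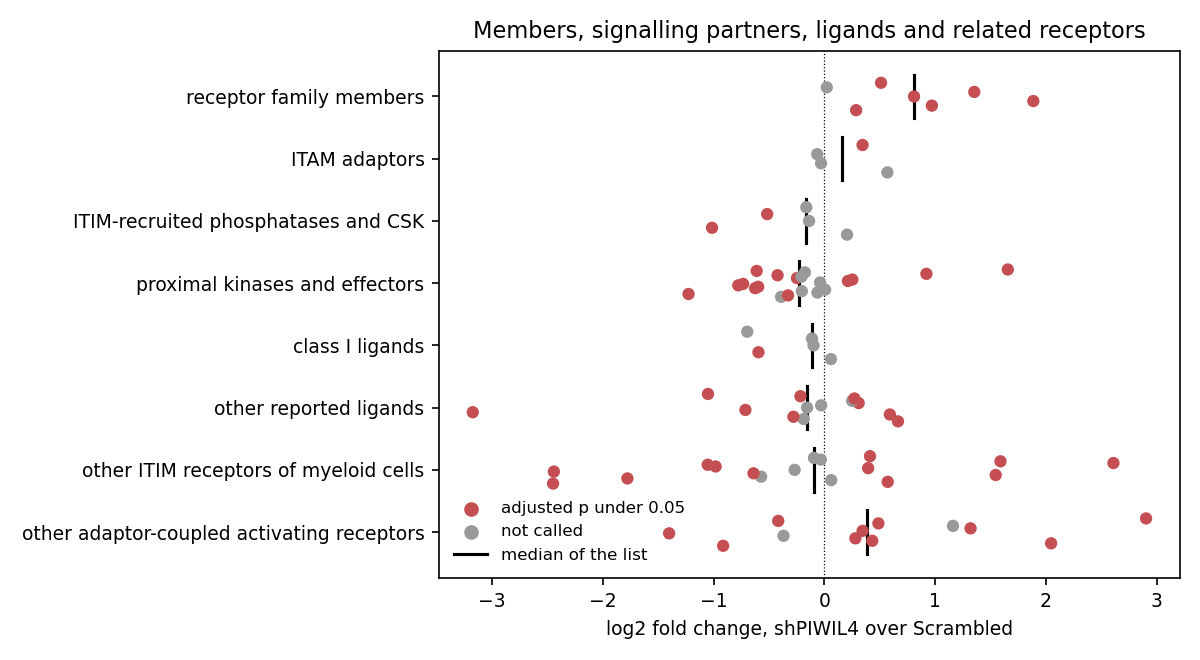
Log2 fold change of shPIWIL4 over Scrambled for each tested gene of the receptor members and 7 lists of adaptors, phosphatases, kinases, ligands and related receptors; coloured points have an adjusted p under 0.05 and bars are medians over the tested genes. The 7 tested members lie at or above 0.02, whereas each of the 7 other lists has points on both sides of 0.

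Markers of the monocyte lineage moved in both directions, and 53.8% of them were called, compared with 57.7% of all tested genes. The 13 markers summed to 31869 and 29357 TPM in shPIWIL4 libraries, against 7563 and 7784 TPM in Scrambled libraries, mainly through CTSG and LYZ. Of these 13, 5 rose, among them LYZ, CTSG, CD68 and FCGR2A, and 2 fell (CSF1R and MPO). CD14, CD33, ITGAM, SPI1, CEBPA and CEBPB were not called, and the median log2 fold change of the markers was 0.06. LYZ, the secreted enzyme lysozyme, averaged 1810 CPM in shPIWIL4 cells and 147 CPM in Scrambled cells, while CSF1R, the receptor of monocyte growth factor, averaged 33.8 CPM in shPIWIL4 cells and 47.5 CPM in Scrambled cells. Summed markers of T and NK cells were 68.2 and 59.5 TPM in shPIWIL4 libraries and 69.0 and 79.6 TPM in Scrambled libraries, with NKG7 as the main contributor. Those of B cells were 22.2 and 21.0 TPM in shPIWIL4 libraries and 24.7 and 25.9 TPM in Scrambled libraries. PAX5, a B cell factor, averaged 62.8 CPM in shPIWIL4 cells and 41.7 CPM in Scrambled cells, and CD79B averaged 3.01 CPM in shPIWIL4 cells and 5.90 CPM in Scrambled cells. Markers of red cells and platelets summed to 0.912 and 0.580 TPM in shPIWIL4 libraries and 4.42 and 5.51 TPM in Scrambled libraries, mainly through ITGA2B, which averaged 1.12 CPM in shPIWIL4 cells and 8.15 CPM in Scrambled cells. Markers of plasmacytoid dendritic cells summed to 2.15 and 2.13 TPM in shPIWIL4 libraries and 1.505 and 1.46 TPM in Scrambled libraries, with CLEC4C and IL3RA at 0. The part of these markers in the members' changes was not tested.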

How the data were processed

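RNA-seq of 4 THP-1 libraries was used. Per the submitters' processing notes, the authors used STAR, featureCounts and DESeq2 on hg19. Their versions and settings are not stated there. The deposited tables hold raw counts per gene, with FPKM and TPM values made by the authors, and library totals ran from 31458079 to 53657246 counts. FPKM served only to recover the gene lengths behind the deposited values. Differences were tested on the counts with edgeR 4.0.16 in R 4.3.3 (TMM scaling, filterByExpr with a minimum count of 10, robust quasi-likelihood F test, no covariate). P-values were adjusted by Benjamini-Hochberg over 16108 genes and called under 0.05, and the procedure was tested on simulated counts. CPM are TMM-scaled. Intervals cover 95% and come from the same fit.

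Alternatives were DESeq2 1.42.0, other scalings and filters, leaving out each library, and a replicate block. Named genes were the 9 members, PIWIL4, every gene with a count among other LILR and LAIR genes, adaptors, phosphatases and HLA class I ligands, and up to 4 called genes per direction and other list with the smallest p. KIR3DX1, KIR3DL2, TTYH1, LCK, APOE, the genes at 0 and the markers of monocytes and other blood cells were named outside that rule after their values were seen. The members and lists were chosen with earlier results of these data known. A few genes that the rule names are not reported here. Of 181 list entries, 179 matched a gene name in the tables. Promoter windows and coordinates are from RefSeq GRCh38.p14.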

Additional observations from a re-analysis of the deposited data

How the results depend on the processing

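Over the alternatives run, 6 members were called higher except with upper-quartile scaling, the replicate block, and without Scrambled replicate 1 or Scrambled replicate 2, where 5 were called because LAIR1 lost its call. No member was called lower under any of them. Over all genes, 4618 were called higher and 4683 lower, and upper-quartile scaling gave 3446 higher and 5717 lower, moving the median of all genes to -0.12 (log2). LILRB2 ranged from 1.23 to 1.56, LILRA1 from 0.84 to 1.11, LILRB1 from 0.69 to 0.97 and LILRB4 from 0.39 to 0.55, all called throughout. With 1 library left out, 3560 to 5164 genes were called higher and 3525 to 5011 lower, and the lone library of a group was assumed to vary like the other group. The stricter filter removed LILRB3 and the sum of LILRB3 and LILRA6. LILRA5 and LILRA6 were not called without a filter (adjusted p 0.68 and 0.92).

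Same-numbered libraries of the groups deviated in opposite directions (correlation -0.31 across genes). With 2 libraries per group this is a single correlation, so it cannot tell whether same-numbered libraries were made together. With the replicate block 3921 genes were called higher and 4197 lower, and LAIR1 had an adjusted p of 0.11. With the numbers crossed, a pairing chosen after seeing the data, 5728 genes were called higher and 5641 lower. Depth limits LILRB3, LILRA5 and LILRA6, which had 1 to 17 counts per library.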
